A study of Homo sapiens with 6 samples.

Results

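The constitutive proteasome subunits and their regulators were followed across 3 human fibroblast lines. The members were the genes whose symbol starts with PSMA, PSMB, PSMC, PSMD, PSME, PSMF or PSMG and a number, without the immunoproteasome subunits PSMB8, PSMB9 and PSMB10. This gave 44 of 18417 genes measured. Of these, 42 are proteasome subunits, assembly chaperones, activators or an inhibitor. The other two, PSMC3IP and PSME3IP1, carry the symbol because they were named after a binding partner, and they are described apart. PSMC5, PSMD7 and PSMD13 also have such a symbol and were not analysed here.

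The proteasome is the main protease of the cytosol and nucleus. Its 20S core is a barrel of outer alpha rings, which gate the entrance, and inner beta rings, of which PSMB5, PSMB6 and PSMB7 carry the active sites. The 19S regulatory particle caps the barrel, recognises ubiquitin chains, removes them and threads the unfolded substrate into the core with a ring of ATPases. Dedicated chaperones put these parts together, and other caps, among them PA28 (PSME1 and PSME2), can open the core without ubiquitin. Interferon is known to induce PSME1, PSME2 and the immunoproteasome subunits, while the transcription factor NFE2L1 is known to drive the constitutive subunits when proteasome activity is low.

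Expression was measured on 6 arrays, and each line has 2 biological replicates. The parental BJ cells are primary fibroblasts of the foreskin. BJEL are BJ cells that received hTERT, the catalytic component of telomerase, and the SV40 early region with the large T and small t antigens, and they were grown with G-418 and hygromycin. BJELM are BJEL cells that received MYC fused to an estrogen receptor domain by retrovirus, and they were grown with G-418, hygromycin, puromycin and continuous 4-hydroxytamoxifen. The drugs of the medium cannot be told apart from the introduced genes, each step was followed in 1 derived line, and the sources used here do not say whether the lines are clonal. Values are log2 signals, on which 1 unit is a 2-fold change, and levels are compared only within a gene. A gene was said to rise or fall where the adjusted p from limma, corrected over all 18417 genes of a comparison, was under 0.05. Differences are log2 differences ± SE with n = 2 arrays per line.

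The arrays of 1 line correlated across genes with r between 0.992 and 0.995, and those of different lines between 0.943 and 0.981. TERT, whose gene was introduced, rose against BJ by 3.02 ± 0.11 in BJEL and by 2.99 ± 0.11 on the arrays labelled BJELM (adjusted p = 0.000156 and 8.44e-05). MYC had signals of 9.47 and 9.61 in BJ, 10.22 and 10.12 in BJEL, and 9.57 and 8.90 on arrays labelled BJELM. It was lower by 0.93 ± 0.21 on the arrays labelled BJELM than in BJEL (adjusted p = 0.0444), although BJELM cells received the MYC fusion. That call was lost without any 1 array other than BJELM replicate 1 (highest adjusted p 0.198), with the difference between -1.27 and -0.60. The line is therefore called by its label, and what the probe set reads of the introduced transcript was not tested. Of 7 fibroblast markers, 6 fell in each derived line against BJ and VIM did not pass the test, while signals of the endothelial markers (PECAM1, CDH5, KDR, TEK) lay between 4.73 and 5.92 and those of the leukocyte markers measured between 4.37 and 7.14. Of 4 epithelial markers, EPCAM and CDH1 lay between 5.35 and 5.84, while KRT19, with signals between 8.80 and 11.23, fell by 1.65 ± 0.37 on the arrays labelled BJELM against BJ (adjusted p = 0.0191), and KRT8 passed in no comparison. The part of these shifts in the results was not tested.

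Most proteasome genes had somewhat higher signals in both derived lines than in BJ, and few of these differences were large. In BJEL, 39 of 44 members had a positive difference from BJ, against 46.5% of all genes, and the median difference was 0.25 against -0.02 over all genes. Both BJEL arrays lay above both BJ arrays for 33 members, where 29.2% of all genes did so, and below them for 2 members, where 32% of all genes did so. By the test, 8 members rose and 0 fell. That is 18.2% of the members, close to the 17.5% of all genes that were called (10.4% rose and 7.13% fell). Of the 44 members, 41 lie above the median level of all genes. When the fit was limited to the brighter genes, from that level up, 27.5% of them were called. The positive share, overlap and median difference of the brighter genes are not given here for any comparison. The members' shift was thus set against all genes only. At an unadjusted p under 0.05, 20 members rose and 0 fell, where 17.3% of all genes rose and 13.3% fell. The calls of PSMC3IP, PSME1 and PSME2 held when any array was left out. The calls of PSMA2, PSMB2, PSMC3, PSMD11 and PSMD14 were lost without any 1 of the BJ or BJEL arrays. Such a fit leaves 1 array in a line, and fewer of all genes were called in it too. PSMA2 was also lost without either array labelled BJELM. In whole cultures, fewer cells of a type and less RNA per cell cannot be told apart.

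**Figure D1:**
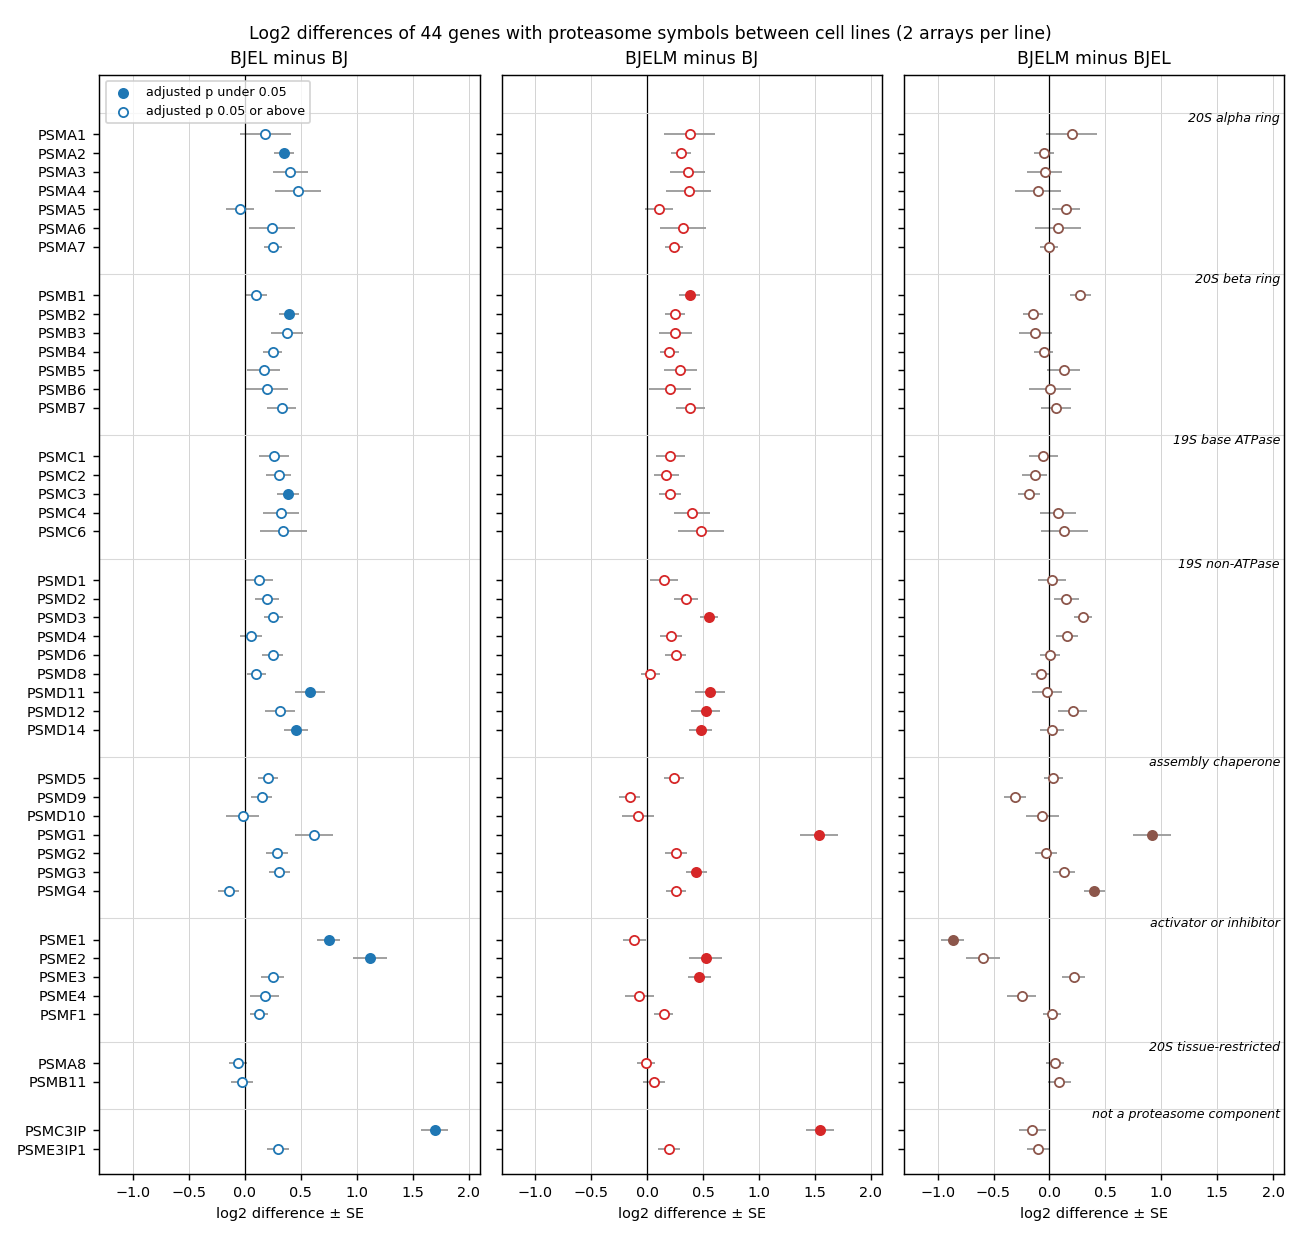
Log2 difference ± SE of each of the 44 genes between cell lines, in 3 panels for the 3 comparisons, grouped by role and with 2 arrays per line. Filled points have an adjusted p under 0.05. Most points lie to the right of 0 in both comparisons with BJ and around 0 in BJELM against BJEL, and PSMC3IP, PSMG1, PSME1 and PSME2 stand out.

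On the arrays labelled BJELM, 39 of 44 members again had a positive difference from BJ, against 52.1% of all genes, with a median of 0.26 against 0.01 over all genes. Both arrays lay above both BJ arrays for 30 members (31.7% of all genes) and below them for 2 members (28.8% of all genes). By the test 10 members rose and 0 fell, 22.7% of the members, where 28.2% of all genes were called (15.1% rose and 13.1% fell), and 46% of the brighter genes. At an unadjusted p under 0.05, 20 members rose and 0 fell, where 19.8% of all genes rose and 17.6% fell. The same BJ arrays serve both comparisons, so that the values of 1 comparison do not bear out those of the other. The calls of PSMC3IP, PSMD3 and PSMG1 held when any array was left out. PSMB1, PSMD12 and PSME3 were lost without BJ replicate 1, BJ replicate 2 or BJELM replicate 2. These fits leave 1 array in a line, and fewer of all genes were called in them than with all arrays. PSMD11 was lost without BJ replicate 1, BJ replicate 2 or BJELM replicate 1, PSMD14 without BJ replicate 1 or BJELM replicate 2, and PSMG3 without BJ replicate 1 or either array labelled BJELM. Leaving out either BJEL array lost PSMD12 and PSME2.

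Between the derived lines, the members spread around 0. The median difference of BJELM against BJEL was 0.01, against 0.03 over all genes, and 24 of 44 differences were positive, where 56.4% were over all genes. By the test 2 members rose (PSMG1 and PSMG4) and 1 fell (PSME1), 6.82% of the members, where 10.8% of all genes were called (4.53% rose and 6.28% fell), and 17.9% of the brighter genes. At an unadjusted p under 0.05, 4 members rose and 3 fell, where 11.5% of all genes rose and 14% fell. Both arrays labelled BJELM lay above both BJEL arrays for 10 members (28.8% of all genes) and below them for 9 (24% of all genes). The call of PSME1 held when any array was left out. That of PSMG1 was lost without BJEL replicate 1, BJEL replicate 2 or BJELM replicate 2, where the difference ranged from 0.70 to 1.14 over the arrays left out, and that of PSMG4 was lost without any 1 array.

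**Figure D2:**
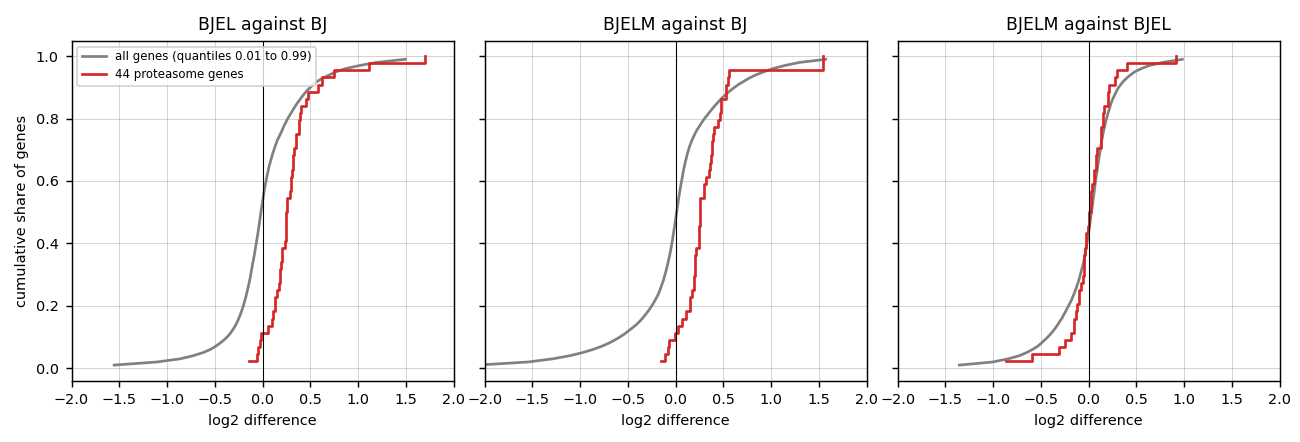
Cumulative share of genes against the log2 difference, with all 18417 genes as a grey line drawn between their quantiles 0.01 and 0.99 and the 44 members as red steps, in 3 panels for the 3 comparisons. The members' steps lie to the right of the grey line over most of its height in both comparisons with BJ (medians 0.25 and 0.26) and follow it in BJELM against BJEL (median 0.01).

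The promoter sequences of PSME1, PSME2 and PSMG1 are shown because these components changed most. PSME1 and PSME2 are also neighbours on chromosome 14, with 1 protein-coding gene (EMC9) between them. Each sequence is the 250 bases before the annotated start in RefSeq's GRCh38.p14 table, 5′ to 3′ on the gene's strand. Capitals mark matches on either strand to TGACNNNGC, a form of the antioxidant response element bound by NFE2L1 and NFE2L2, and to the core of the interferon-stimulated response element, a pair of GAAA half-sites 2 bases apart.
PSME1, chr14:24135944-24136193, plus strand: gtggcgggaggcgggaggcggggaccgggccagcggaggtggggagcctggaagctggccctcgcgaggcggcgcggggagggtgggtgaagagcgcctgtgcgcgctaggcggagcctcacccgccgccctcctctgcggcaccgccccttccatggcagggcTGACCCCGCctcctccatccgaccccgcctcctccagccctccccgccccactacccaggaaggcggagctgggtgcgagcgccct
PSME2, chr14:24146611-24146860, minus strand: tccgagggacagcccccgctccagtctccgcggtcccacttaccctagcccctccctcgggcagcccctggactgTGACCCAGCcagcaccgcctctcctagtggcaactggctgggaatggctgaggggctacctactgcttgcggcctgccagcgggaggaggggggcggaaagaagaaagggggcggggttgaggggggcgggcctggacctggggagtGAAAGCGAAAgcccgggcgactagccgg
PSMG1, chr21:39183452-39183701, minus strand: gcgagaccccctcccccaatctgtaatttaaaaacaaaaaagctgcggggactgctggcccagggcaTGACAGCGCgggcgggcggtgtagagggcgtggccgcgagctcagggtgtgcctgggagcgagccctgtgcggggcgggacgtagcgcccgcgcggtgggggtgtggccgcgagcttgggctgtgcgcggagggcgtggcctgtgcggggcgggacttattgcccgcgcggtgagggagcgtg

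All 3 windows hold TGACNNNGC, at bases 86 to 78 before the start in PSME1, 175 to 167 in PSME2 and 183 to 175 in PSMG1. Of the 3, the window of PSME2 holds the interferon-stimulated response element, at bases 28 to 19 before the start. The table holds 47 promoters of 38 of the 44 members. That element was found in 8.51% of these (PSMA4, PSMB4, PSME2 and PSMG4) and in 3.02% of all 35116 promoters. TGACNNNGC was found in 23.4% of the members' promoters and 10.9% of all, the related form TGAGNNNGC in 23.4% and 14.8%, the E-box CACGTG in 10.6% and 6.34%, and CCAAT in 42.6% and 32%. These motifs were searched on both strands, and a match is a description of the letters, not a bound site.

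The 7 measured alpha ring genes had a median difference from BJ of 0.25 in BJEL and 0.32 on arrays labelled BJELM, with 6 and 7 positive differences. PSMA2 (Entrez 5683, probe set 8139232) had signals of 11.44 and 11.43 in BJ, 11.74 and 11.83 in BJEL, and 11.68 and 11.80 on arrays labelled BJELM. Both derived lines lay above BJ and overlapped with each other. PSMA2 rose in BJEL by 0.35 ± 0.09, or 1.27-fold (adjusted p = 0.0449), and its difference of 0.30 ± 0.09 on the arrays labelled BJELM did not pass (adjusted p = 0.0514). PSMA5, the alpha subunit with the smallest differences, had signals of 9.67 and 9.83 in BJ, 9.62 and 9.79 in BJEL, and 9.73 and 9.98 on arrays labelled BJELM. The 3 lines overlapped. The 95% interval of its BJEL difference ran from -0.35 to 0.26, and the adjusted p was 0.86. The largest alpha ring difference in BJEL was that of PSMA4, at 0.47 ± 0.20 (adjusted p = 0.177), and that on the arrays labelled BJELM was PSMA1, at 0.38 ± 0.23 (adjusted p = 0.304).

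The 7 constitutive beta ring genes all had positive differences from BJ in both derived lines, with medians of 0.25 in BJEL and 0.25 on arrays labelled BJELM. Among the non-catalytic subunits, PSMB2 (Entrez 5690, probe set 7914834) had signals of 11.59 and 11.56 in BJ, 11.99 and 11.95 in BJEL, and 11.89 and 11.75 on arrays labelled BJELM. Its BJEL arrays were the highest and its BJ arrays the lowest, without overlap. It rose in BJEL by 0.40 ± 0.09 (adjusted p = 0.0301), and the difference of 0.25 ± 0.09 on the arrays labelled BJELM had an adjusted p of 0.0937. PSMB1 (Entrez 5689, probe set 8130952) had signals of 10.02 and 10.01 in BJ, 10.05 and 10.18 in BJEL, and 10.33 and 10.46 on arrays labelled BJELM. Here the arrays labelled BJELM were the highest. PSMB1 rose against BJ by 0.38 ± 0.09 (adjusted p = 0.0286), and its difference from BJEL of 0.28 ± 0.09 did not pass (adjusted p = 0.132).

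None of the 3 constitutive catalytic subunits passed the test in any comparison when no replicate block was fitted. PSMB5, the chymotrypsin-like subunit and the main target of bortezomib, had signals of 11.06 and 10.84 in BJ, 11.28 and 10.96 in BJEL, and 11.35 and 11.14 on arrays labelled BJELM. Its BJ and BJEL arrays overlapped, while both arrays labelled BJELM lay above BJ, by 0.30 ± 0.15 (adjusted p = 0.215). PSMB6, the caspase-like subunit, had signals of 11.95 and 12.22 in BJ, 12.05 and 12.51 in BJEL, and 12.16 and 12.42 on arrays labelled BJELM. The 3 lines overlapped, and the 95% interval of its BJEL difference, -0.26 to 0.66, includes 0. PSMB7, the trypsin-like subunit, had signals of 11.24 and 11.03 in BJ, 11.60 and 11.32 in BJEL, and 11.56 and 11.47 on arrays labelled BJELM. Both derived lines lay above BJ, by 0.33 ± 0.13 (adjusted p = 0.15) and 0.39 ± 0.13 (adjusted p = 0.0767).

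Both tissue-restricted core subunits were low and did not pass in any comparison. PSMA8, which replaces PSMA7 in the testis, had signals between 4.38 and 4.50 on the 6 arrays, and PSMB11, the beta subunit of the thymus, between 5.03 and 5.25. Their differences from BJ in BJEL were -0.06 and -0.03.

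The 19S genes moved in the same range. All 14 measured had positive differences from BJ in both derived lines, with medians of 0.28 and 0.30, and 9 of 14 in BJELM against BJEL. The ATPases of the base unfold the substrate. Of the 5 analysed here, which leave out PSMC5, PSMC3 was the single one called with the probe sets used. PSMC3 (Entrez 5702, probe set 7947867) had signals of 10.00 and 9.89 in BJ, 10.37 and 10.29 in BJEL, and 10.23 and 10.06 on arrays labelled BJELM. The lines did not overlap, with BJEL highest and BJ lowest. PSMC3 rose in BJEL by 0.39 ± 0.10 (adjusted p = 0.0454), while on the arrays labelled BJELM its difference was 0.20 ± 0.10 (adjusted p = 0.203). PSMC1, the ATPase whose largest difference over the 3 comparisons was the smallest, had signals of 10.52 and 10.69 in BJ, 10.82 and 10.91 in BJEL, and 10.66 and 10.97 on arrays labelled BJELM. A second, unused set for PSMC1 had 10.36 and 10.55 in BJ, 10.67 and 10.76 in BJEL, and 10.50 and 10.83 on arrays labelled BJELM. PSMC1 and PSMC6 are each read by 2 probe sets, and those of PSMC6 gave 9.41 (the one used) and 9.12 on BJ replicate 1, and 10.31 and 9.83 on BJELM replicate 2. The unused PSMC6 set had signals of 9.12 and 9.11 in BJ, 9.37 and 9.61 in BJEL, and 9.54 and 9.83 on arrays labelled BJELM. Both derived lines lay above BJ by either set. With the set used, the difference on the arrays labelled BJELM against BJ was 0.48 ± 0.21 (adjusted p = 0.154). With the mean of both sets PSMC6 was not called, and a test of the unused set is not given here. Related loci may share probes here, since RefSeq names 48 pseudogenes for 20 of the members, 13 of them for PSMC1 and 3 for PSMC6. Their share of the signal was not tested. Whether the sets used for PSMC1 and PSMC6 read the gene or a pseudogene copy was not tested either.

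Of the 9 non-ATPase genes measured of the 19S particle, 2 rose in BJEL and 4 on arrays labelled BJELM against BJ. Of the 5 measured ATPases, 1 and 0 rose. Over all genes, 10.4% rose in BJEL and 15.1% on arrays labelled BJELM. The called non-ATPase genes are all lid subunits. PSMD11 (Entrez 5717, probe set 8006392) had signals of 11.07 and 10.86 in BJ, 11.62 and 11.47 in BJEL, and 11.66 and 11.37 on arrays labelled BJELM. Both derived lines lay above BJ and overlapped with each other. In BJEL PSMD11 rose by 0.58 ± 0.14 (adjusted p = 0.0332), and by 0.56 ± 0.14 on the arrays labelled BJELM (adjusted p = 0.0253). PSMD14, the deubiquitinase of the lid, had signals of 10.39 and 10.55 in BJ, 10.91 and 10.94 in BJEL, and 10.85 and 11.05 on arrays labelled BJELM. It showed the same order, and it rose by 0.46 ± 0.11 (adjusted p = 0.0342) and 0.48 ± 0.11 (adjusted p = 0.0193).

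PSMD3 (Entrez 5709, probe set 8006984) gave the steadiest rise of the lid on the arrays labelled BJELM. Its signals were 11.12 and 11.05 in BJ, 11.37 and 11.30 in BJEL, and 11.65 and 11.62 on arrays labelled BJELM. The 3 lines did not overlap, in the order BJ, BJEL, BJELM. It rose against BJ by 0.55 ± 0.08, or 1.47-fold (adjusted p = 0.00449), and the smaller differences of 0.25 ± 0.08 for BJEL against BJ (adjusted p = 0.0915) and 0.30 ± 0.08 for BJELM against BJEL (adjusted p = 0.0766) did not pass. PSMD12 had signals of 9.31 and 9.26 in BJ, 9.59 and 9.61 in BJEL, and 9.62 and 10.00 on arrays labelled BJELM. The lines followed the same order, and it rose against BJ by 0.52 ± 0.13 (adjusted p = 0.03). PSMD8, another lid subunit, had signals of 11.88 and 11.97 in BJ, 12.06 and 11.99 in BJEL, and 11.92 and 11.98 on arrays labelled BJELM. Its differences from BJ were 0.10 and 0.03, and its largest difference over the 3 comparisons was the smallest such value of the class.

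Among the assembly chaperones, PSMG1 stood out. PSMG1 (Entrez 8624, probe set 8070330), which pairs with PSMG2 to build the alpha ring, had signals of 9.72 and 9.94 in BJ, 10.35 and 10.55 in BJEL, and 11.15 and 11.59 on arrays labelled BJELM. The 3 lines did not overlap, in the order BJ, BJEL, BJELM. It rose by 1.54 ± 0.17, or 2.90-fold, on the arrays labelled BJELM against BJ (adjusted p = 0.00155) and by 0.92 ± 0.17, or 1.89-fold, against BJEL (adjusted p = 0.0239), while the BJEL difference from BJ of 0.62 ± 0.17 had an adjusted p of 0.0558. PSMG2 differed far less. Its differences from BJ were 0.29 ± 0.10 in BJEL (adjusted p = 0.102) and 0.26 ± 0.10 on the arrays labelled BJELM (adjusted p = 0.108), and that between the derived lines was -0.03 ± 0.10, with a 95% interval of -0.27 to 0.21. Whether PSMG1 and PSMG2 differ in their change was not tested.

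**Figure D3:**
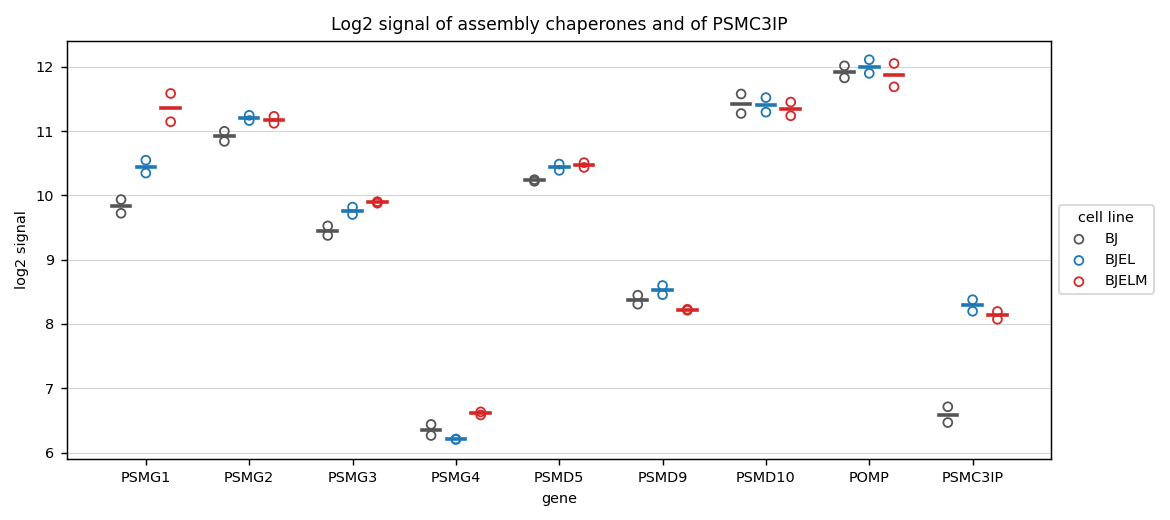
Log2 signal of the assembly chaperones and of PSMC3IP on each array. Circles are the 2 arrays of a cell line and bars their mean, in grey for BJ, blue for BJEL and red for BJELM. PSMG1 steps up from 9.72 and 9.94 in BJ to 11.15 and 11.59 on the arrays labelled BJELM, and PSMC3IP is higher in both derived lines than in BJ.

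PSMG3 and PSMG4 form the other chaperone pair of the core. PSMG3 had signals of 9.38 and 9.53 in BJ, 9.82 and 9.70 in BJEL, and 9.90 and 9.88 on arrays labelled BJELM. The lines did not overlap, and it rose on the arrays labelled BJELM against BJ by 0.44 ± 0.09 (adjusted p = 0.0166). PSMG4 had signals of 6.44 and 6.26 in BJ, 6.20 and 6.21 in BJEL, and 6.58 and 6.63 on arrays labelled BJELM. BJEL was lowest and BJELM highest, and PSMG4 rose between them by 0.40 ± 0.09 (adjusted p = 0.0459). The chaperones of base assembly, PSMD5, PSMD9 and PSMD10, did not pass in any comparison. PSMD10, known as gankyrin, had signals of 11.28 and 11.58 in BJ, 11.30 and 11.52 in BJEL, and 11.24 and 11.45 on arrays labelled BJELM, and all 3 lines overlapped. PSMD9 was lower on the arrays labelled BJELM than in BJEL by 0.31 ± 0.10 without passing (adjusted p = 0.106). POMP, the maturation factor of the core, whose symbol falls outside the rule, had signals between 11.69 and 12.11 with all 3 lines overlapping, and no difference passed.

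The activators held the one member that fell. PSME1 (Entrez 5720, probe set 7973564), the alpha subunit of PA28, had signals of 9.95 and 10.03 in BJ, 10.83 and 10.65 in BJEL, and 9.94 and 9.81 on arrays labelled BJELM. BJEL was highest, and the arrays labelled BJELM lay at or just under BJ. PSME1 rose in BJEL by 0.75 ± 0.10, or 1.68-fold (adjusted p = 0.00576), and fell by 0.86 ± 0.10, or 1.82-fold, in BJELM against BJEL (adjusted p = 0.00694). The difference between BJELM and BJ was -0.12, with a 95% interval of -0.37 to 0.13. PSME2 (Entrez 5721, probe set 7978123), the beta subunit, had signals of 9.49 and 9.82 in BJ, 10.83 and 10.71 in BJEL, and 10.05 and 10.31 on arrays labelled BJELM. BJEL was again highest, and here the arrays labelled BJELM stayed above BJ. PSME2 rose in BJEL by 1.12 ± 0.15, or 2.17-fold (adjusted p = 0.00523), and by 0.52 ± 0.15 on the arrays labelled BJELM (adjusted p = 0.0441), and its difference of -0.59 ± 0.15 in BJELM against BJEL did not pass (adjusted p = 0.0575). The call of PSME2 on the arrays labelled BJELM was lost without BJ replicate 1, BJEL replicate 1, BJEL replicate 2 or BJELM replicate 2, where the adjusted p ranged up to 0.213. RefSeq names 6 pseudogenes of PSME2.

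The other regulators of the core had smaller differences. PSME3, the nuclear PA28 gamma, had signals of 11.30 and 11.40 in BJ, 11.55 and 11.65 in BJEL, and 11.72 and 11.91 on arrays labelled BJELM. The lines did not overlap, in the order BJ, BJEL, BJELM, and PSME3 rose against BJ by 0.47 ± 0.10 on the arrays labelled BJELM (adjusted p = 0.0182). PSME4, the nuclear activator PA200, had signals of 9.98 and 10.08 in BJ, 10.07 and 10.34 in BJEL, and 9.85 and 10.06 on arrays labelled BJELM. The derived lines each overlapped with BJ, and no difference passed. PSMF1, known as PI31 and an inhibitor of the core in vitro, had signals of 10.93 and 11.03 in BJ, 11.10 and 11.12 in BJEL, and 11.14 and 11.11 on arrays labelled BJELM. Signals were slightly above BJ in both derived lines, by 0.13 ± 0.08 and 0.15 ± 0.08, with adjusted p = 0.37 and 0.269.

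The immunoproteasome subunits, left out by the rule, followed an order like that of PSME1 for PSMB8 and PSMB9 and not for PSMB10. They replace the catalytic subunits in interferon-treated and immune cells. PSMB8 had signals of 7.29 and 7.22 in BJ, 9.28 and 8.47 in BJEL, and 6.92 and 6.83 on arrays labelled BJELM. BJEL was highest, with its 2 arrays apart. PSMB8 rose in BJEL by 1.62 ± 0.25 (adjusted p = 0.00831) and fell by 2.00 ± 0.25 in BJELM against BJEL (adjusted p = 0.00746). PSMB9 had signals of 7.65 and 7.34 in BJ, 10.21 and 9.18 in BJEL, and 7.24 and 6.69 on arrays labelled BJELM, with the same order. In BJEL it rose by 2.20 ± 0.35 (adjusted p = 0.00993), which did not hold when BJ replicate 2 was left out (adjusted p = 0.0526), and it fell by 2.73 ± 0.35 in BJELM against BJEL (adjusted p = 0.00842). PSMB10 had signals of 7.57 and 7.44 in BJ, 7.83 and 7.56 in BJEL, and 7.45 and 7.72 on arrays labelled BJELM, and its lines overlapped. Of 5 measured genes of interferon-inducible antigen presentation (TAP1, TAP2, TAPBP, IRF1 and B2M), TAP2 and B2M rose in BJEL against BJ, TAPBP fell on the arrays labelled BJELM against BJ, and 4 fell in BJELM against BJEL, all but IRF1. Their part in the levels of PSME1 and PSME2 was not tested.

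**Figure D4:**
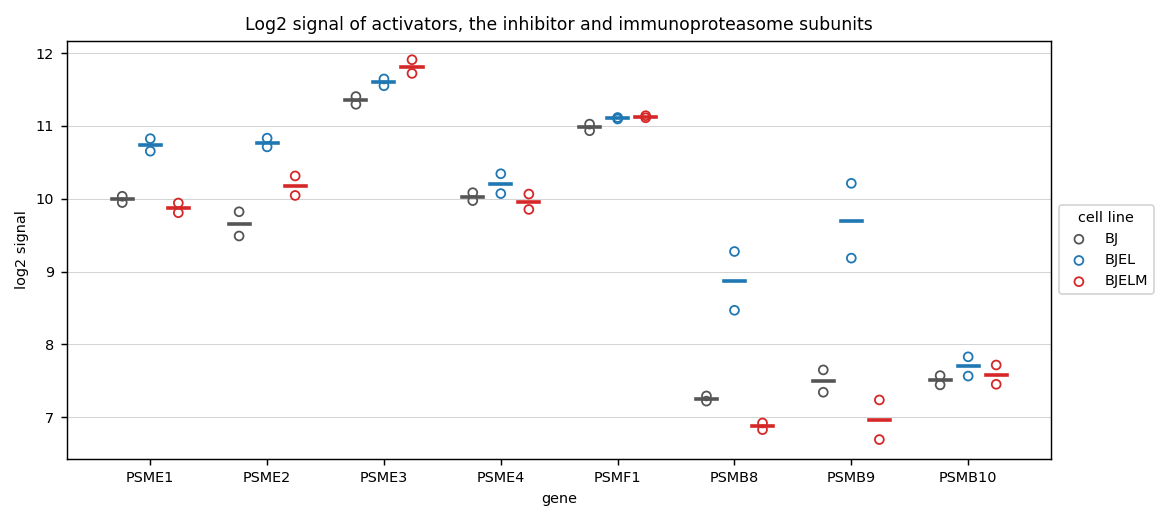
Log2 signal of the activator subunits, the inhibitor PSMF1 and the immunoproteasome subunits on each array. Circles are the 2 arrays of a cell line and bars their mean, in grey for BJ, blue for BJEL and red for BJELM. PSME1, PSME2, PSMB8 and PSMB9 are highest in BJEL, PSME3 is highest on the arrays labelled BJELM, and PSMB10 overlaps across the lines.

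The largest difference among the 44 members belonged to PSMC3IP, which is not a proteasome component but a cofactor of homologous recombination. PSMC3IP (Entrez 29893, probe set 8015642) had signals of 6.47 and 6.71 in BJ, 8.38 and 8.20 in BJEL, and 8.19 and 8.07 on arrays labelled BJELM. The BJ arrays lay far below those of both derived lines. The rise was 1.70 ± 0.12, or 3.25-fold, in BJEL (adjusted p = 0.000976) and 1.54 ± 0.12, or 2.92-fold, on the arrays labelled BJELM (adjusted p = 0.000555). PSME3IP1, named after its binding to PSME3, had signals of 9.58 and 9.75 in BJ, 10.02 and 9.90 in BJEL, and 9.89 and 9.83 on arrays labelled BJELM, and no difference passed. Without both of these, the median difference from BJ of the 42 components was 0.25 in BJEL, with 7 that rose, and 0.26 on the arrays labelled BJELM, with 9 that rose.

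With a 2-fold minimum added to the test, 2 members remained in BJEL (PSMC3IP and PSME2), where 5.18% of all genes were called. On the arrays labelled BJELM 2 members remained against BJ (PSMC3IP and PSMG1), where 8.79% of all genes were called. Against BJEL none remained, where 2.68% of all genes were called. The members' differences were thus mostly below 2-fold, and no component outside PSMG1 and PSME2 reached that size.

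Arrays of the same line differed in a pattern that recurred between lines for many members. For 16 members replicate 2 was the higher array in all 3 lines and for 10 members replicate 1 was, so that 26 members, 59.1%, kept 1 sign, where 47.1% of all genes did. The largest single gap was that of PSMA1, whose gaps were 0.46 in BJ, 0.29 in BJEL and 0.52 on arrays labelled BJELM, and over the members their median size was 0.14. These gaps are of the size of many differences between lines.

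**Figure D5:**
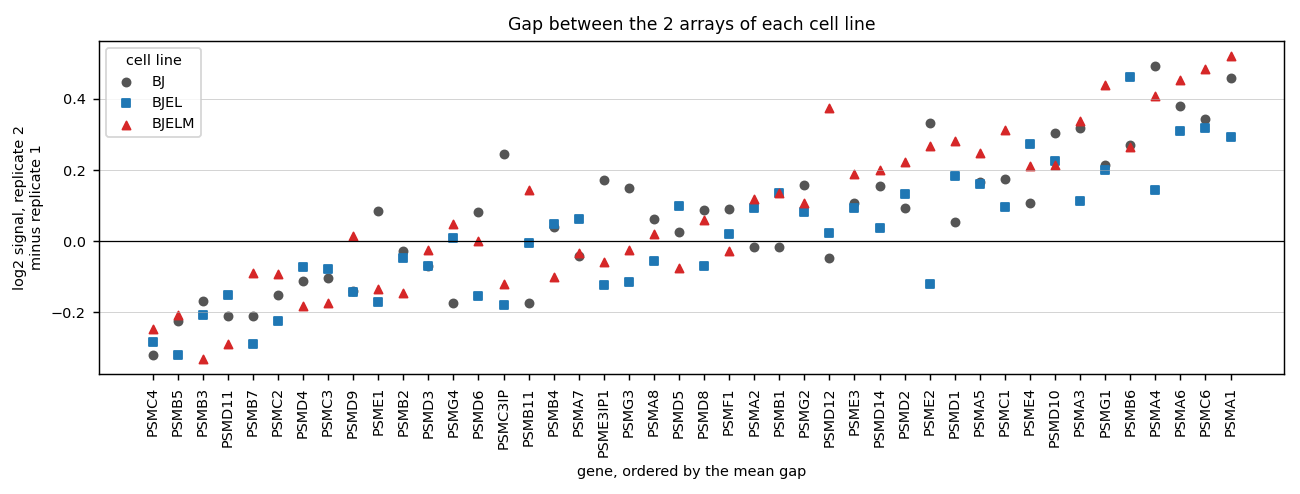
Log2 signal of replicate 2 minus replicate 1 for each member in BJ (grey circles), BJEL (blue squares) and BJELM (red triangles), with genes ordered by their mean gap. Genes at the right, such as PSMA1, PSMC6 and PSMA6, are higher on replicate 2 in all 3 lines, and genes at the left, such as PSMC4 and PSMB5, are lower.

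Of 37 genes listed as partners of the proteasome (regulators of its genes, associated factors, ubiquitin and shuttle factors), 31 were measured. In BJEL against BJ 2 rose and 1 fell, where 10.4% of all genes rose and 7.13% fell. On the arrays labelled BJELM 4 rose and 2 fell against BJ, where 15.1% of all genes rose and 13.1% fell. Against BJEL 1 rose and 2 fell, where 4.53% of all genes rose and 6.28% fell. UCHL5, a deubiquitinase of the 19S particle, had signals of 8.25 and 8.75 in BJ, 9.18 and 9.37 in BJEL, and 9.37 and 9.72 on arrays labelled BJELM. Signals were higher in both derived lines, where UCHL5 rose against BJ, in BJEL by 0.78 ± 0.20 (adjusted p = 0.0452) and by 1.05 ± 0.20 on the arrays labelled BJELM (adjusted p = 0.0107). The BJEL call of UCHL5 was lost without BJ replicate 1, BJEL replicate 1 or BJEL replicate 2 (highest adjusted p 0.188). IPO9, an importin that brings proteasomes into the nucleus, rose by 0.66 ± 0.14 (adjusted p = 0.022) and 0.57 ± 0.14 (adjusted p = 0.0241), and these calls were lost without either BJ array (highest adjusted p 0.111 and 0.106), the first also without either BJEL array and the second without BJELM replicate 1. ECPAS, a proteasome adaptor and scaffold, rose on the arrays labelled BJELM by 0.58 ± 0.08 against BJ (adjusted p = 0.00333) and by 0.45 ± 0.08 against BJEL (adjusted p = 0.0208), and SEM1, a small lid subunit, rose by 0.38 ± 0.09 against BJ (adjusted p = 0.0223). The call of SEM1 was lost without BJ replicate 1, BJ replicate 2 or BJELM replicate 2 (highest adjusted p 0.138).

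The partners that fell include transcription factors and a stimulator of the proteasome. ZFAND5, a zinc finger protein known to stimulate the proteasome during muscle atrophy, had signals of 11.00 and 11.00 in BJ, 9.48 and 9.49 in BJEL, and 9.44 and 9.34 on arrays labelled BJELM. All 4 arrays of the derived lines lay far below BJ. In BJEL ZFAND5 fell by 1.52 ± 0.08, or 2.87-fold, (adjusted p = 0.000476) and fell by 1.61 ± 0.08, or 3.06-fold, on the arrays labelled BJELM (adjusted p = 0.000181). NFE2L1 had signals of 11.09 and 10.76 in BJ, 10.76 and 10.45 in BJEL, and 10.38 and 10.15 on arrays labelled BJELM. Its arrays were lowest on those labelled BJELM, where it fell against BJ by 0.66 ± 0.17 (adjusted p = 0.0297). Without BJ replicate 1 or BJELM replicate 2 it did not pass (highest adjusted p 0.153). Its difference in BJEL was -0.32 ± 0.17 (adjusted p = 0.263). MAFG, a small MAF partner of NFE2L1, and AKIRIN2, which takes part in nuclear import of proteasomes, fell in BJELM against BJEL by 0.45 ± 0.09 (adjusted p = 0.0277) and by 0.44 ± 0.10 (adjusted p = 0.0454). The calls between the derived lines for ECPAS, MAFG and AKIRIN2 were each lost without any 1 array.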

How the data were processed

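The authors made the deposited log2 signals of all 6 arrays with RMA at default settings on Affymetrix Gene 1.0 ST arrays, using Expression Console 1.3.1 as named in the submitters' processing notes. RMA gives the probe intensities of every array the same distribution before they are summarised, so a shift shared by all genes cannot be seen. The medians of the deposited signals still ranged from 6.37 to 6.46 between arrays. Precision is limited by the number of arrays.

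Of 33297 probe sets, 19460 have 1 gene symbol. Each gene was represented by the one with the highest mean. Differences were fitted in R 4.3.3 with limma 3.58.1, using all 6 arrays, a mean per line and no replicate block. The residual degrees of freedom were 3, and the prior gave another 3.13. Tests were two-sided, with Benjamini-Hochberg adjustment over 18417 genes, and were tested on simulated data. With 2 arrays against 2, an exact permutation test cannot go below p = 0.333.

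The members and gene lists were chosen with earlier results of these data known. Values per array are given, in each class, for up to 3 called genes with the largest difference and for the least changed gene, and always for the catalytic, activator and immunoproteasome subunits, NFE2L1, POMP, TERT and MYC. Called partners were named up to 4 per comparison. SEM1, PSMA1, PSMA4, PSMB11, PSMC6, PSMD9 and PSMG2 were added after their values were seen. Alternatives left out each array, or changed the samples fitted, the block, the normalization, the prior, the filter, the probe sets, the threshold or the test.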

Additional observations from a re-analysis of the deposited data

How the results depend on the processing

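The medians of the members' differences moved by less than the spread between arrays in every alternative run. That spread is the SD of the members' array medians within lines. Some alternatives keep every difference, so they could not move a median. These are the replicate block, fitting only both groups compared, testing every probe set and leaving out an array of a line not compared. The BJELM against BJEL median of 0.01 is smaller than that spread, so a change of its sign would not have counted. Counts of calls moved more. With arrays left out in turn, the members that rose ranged from 3 to 8 in BJEL against BJ (8 with all arrays), from 3 to 9 in BJELM against BJ (10) and from 0 to 1 in BJELM against BJEL (2), and the partners called from 1 to 3 (3), from 3 to 6 (6) and 0 throughout (3). The labels number the arrays 1 and 2 in each line without saying that a number marks a shared batch. Same-numbered arrays deviated together, with r across genes of 0.448 for BJ and BJEL, 0.481 for BJ and BJELM and 0.553 for BJEL and BJELM. Over the 44 members alone, r was 0.653, 0.743 and 0.786 for the same pairs. With the replicate block, the members that rose were 20, 24 and 4 in the 3 comparisons in that order, 3 members fell in BJELM against BJEL, and 10, 13 and 8 partners were called. PSMA4 (adjusted p = 0.0122) and PSMB7 (0.0240) then rose in BJEL against BJ, and PSMB5 (0.0216) and PSMB7 (0.00914) in BJELM against BJ. All member calls without the block were kept, and 31.5%, 39.6% and 24.3% of all genes were called. With every probe set tested, 3 members rose in BJEL against BJ, where 12.1% of all genes were called. For BJELM against BJ, 7 of the 10 member calls were kept and 23.2% of all genes were called. Between the derived lines 0 members rose and 1 partner was called, where 5.95% of all genes were. With 2-fold added, 2, 2 and 0 members rose, 0 fell and 1, 2 and 0 partners were called. At an adjusted p under 0.01, 3, 3 and 0 members rose and 1, 2 and 0 partners were called, where 7.26%, 16.3% and 2.98% of all genes were. The study's methods name a modified t-test, and its modification was not reproduced here. By Welch's t-test, a plain t-test with unequal variances, at an unadjusted p under 0.05 with 2-fold, 1, 1 and 0 members rose. By the same test 0 members fell and 1, 1 and 0 partners were called. Of all genes, 2.52%, 4.78% and 1.25% were called by it. After Benjamini-Hochberg adjustment 0 genes of either kind were called, and 0% of all genes. In BJELM against BJEL, fitting only both groups compared left 1 member that rose and 0 partners, the intensity trend 1 and 1, and either filter on dim genes 1 that rose and 2 that fell. Of the genes tested, 7.6% were called with only both groups, 9.57% with the trend, and 17.9% and 15.3% with the filters. Small differences that passed no test changed sign. Over the arrays left out, that of BJEL against BJ ranged from -0.13 to 0.039 for PSMA5, from -0.032 to 0.43 for PSMB6 and from -0.11 to 0.060 for PSMB11, that of BJELM against BJ from -0.017 to 0.071 for PSMD8, and that of BJELM against BJEL from -0.083 to 0.025 for PSMG2. With quantile normalization the difference of PSMB11 was 0.0088 and that of PSMG2 0.015, and with median centring that of PSMG2 was 0.012. The cause was not tested.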
